A study of Mus musculus with 21 samples.

Results

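The genes described are those of cholesterol synthesis and of the cell's response to its sterol content. A list of 33 genes was matched by symbol to the rows of the expression table that carry a single gene symbol, the row with the highest mean being kept where a gene had several, and 29 of the 33 were found among 22180 genes measured in this way. By role they were 5 enzymes of the mevalonate pathway, 11 enzymes from squalene to cholesterol, 6 genes of sterol sensing and transport, 3 enzymes of fatty acid synthesis and 4 genes around the liver X receptors. Acat2, Idi1, Scd2 and Nr1h2 had no row with a single symbol. The list follows the pathway, but it was chosen with earlier results of these data known, so its called shares are a description.

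Osteoblasts, which form bone, came from the skull vault (calvaria) of mice of the strain C57BL/6J 7 to 10 days old and were used at passage 2 after differentiation from day 3 and 24 h without serum from day 10. They were treated for 4 h with vehicle or with 1 of 6 peptides derived from parathyroid hormone (PTH), which acts on osteoblasts through a receptor coupled to cyclic AMP. The peptides hPTH(1-34), hPTH(1-31) and PTH(1-36) start at the hormone's first residue and were used at 100 nM. Of the peptides that lack the first residues, bPTH(3-34) and hPTH(7-34) were used at 100 nM, and bPTH(7-34), an amidated bovine fragment carrying D-Trp12 and Tyr34, at 1 µM. They are called truncated analogs here, and the other 3 analogs that start at residue 1. Each of the 7 groups had 3 arrays, for which the cells had been prepared independently, 21 arrays in all.

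Cells make cholesterol from acetyl units through mevalonate, which is phosphorylated and turned into isoprenoid units, joined to squalene, closed to the sterol lanosterol and trimmed to cholesterol. The enzymes are classically controlled together. When sterols are scarce, the transcription factors SREBP1 and SREBP2 (genes Srebf1 and Srebf2) are carried by Scap out of the endoplasmic reticulum, released from the membrane and bind sterol regulatory elements before the enzymes' genes, while Insig1 and Insig2 hold them back when sterols are plentiful. Oxysterols, which build up with cholesterol, act on the liver X receptors (Nr1h3 and Nr1h2), which raise the cholesterol exporters Abca1 and Abcg1 and Mylip, a ubiquitin ligase that sends lipoprotein receptors to degradation.

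Signals are read as log2 values. Array medians lay between 3.49 and 3.61, and the vehicle means of the 29 genes between 5.54 and 9.52, above the median of 4.44 over all genes. The unadjusted 95% interval of a difference had a median half-width of 0.215 over the 29 genes with 3 arrays a group. Calls rest on p-values adjusted over all genes and needed larger differences. The smallest called difference of a member was 0.28 in size (Ebp), and +0.40 (Mvk with hPTH(1-34) against vehicle) was not called. An uncalled difference of such a size is therefore not shown to be absent. Of the osteoblast markers Col1a1 was the highest with vehicle (13.2) and Bglap, the late marker osteocalcin, the lowest, near the array median (3.73). The others were at 12.3 (Postn), 8.93 (Alpl), 8.71 (Bmp1), 6.65 (Ibsp) and 5.94 (Sp7). The mean level of the osteoblast markers per array lay between 8.18 and 8.88 over all groups. Of 7 measured osteoblast markers 1 was called higher and 1 lower with hPTH(1-34) and with hPTH(1-31), and 0 higher and 1 lower with PTH(1-36). Of 6 endothelial markers 1 was called lower with each of these 3 analogs, and 1 higher with hPTH(1-31) and PTH(1-36). All 8 macrophage markers had signals of 7.20 or more with vehicle, and their mean level per array lay between 9.47 and 9.92 over all groups, with Cd14 the lowest and Lyz2 the highest. Of the 8, 1 was called higher with hPTH(1-34) and 0 with the other analogs. The mean level of 8 adipocyte markers lay between 3.85 and 4.25, and 1 of them was called lower with each analog that starts at residue 1. With vehicle Cebpa (7.16) and Pparg (6.83) were above the median of 4.44 over all genes. The other adipocyte markers lay below it, from 2.66 (Lep) to 3.95 (Plin1), with Adipoq at 2.93. Beside these marker counts, 8.64%, 8.7% and 7.23% of all genes were called with hPTH(1-34), hPTH(1-31) and PTH(1-36). The part of these cell types in the results was not tested. The arrays measured whole cultures, so fewer cells of a type and less RNA per cell cannot be told apart.

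Sequences before the start sites of 6 of the genes are shown because these genes carry the main contrasts described below: Pmvk, Mvk, Hmgcs1, Cyp51 and Hsd17b7 were higher after at least 1 PTH analog, and Mylip was lower. Each is the 250 bases that precede a start site, written 5′ to 3′ on the strand of the gene, from RefSeq's promoter windows (build GRCm38.p6). Capitals mark the letters of 5 searched motifs: the sterol regulatory element TCACNCCAC, the cyclic AMP response element TGACGTCA, its core TGACG, the CCAAT box and the GC box GGGCGG.
Pmvk (chr3:89454291-89454540, plus strand): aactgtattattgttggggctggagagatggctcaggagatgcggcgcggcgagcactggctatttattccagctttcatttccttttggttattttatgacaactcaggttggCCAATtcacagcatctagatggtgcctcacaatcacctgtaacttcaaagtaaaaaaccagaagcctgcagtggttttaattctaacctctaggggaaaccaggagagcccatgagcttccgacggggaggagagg
Mvk (chr5:114444019-114444268, plus strand): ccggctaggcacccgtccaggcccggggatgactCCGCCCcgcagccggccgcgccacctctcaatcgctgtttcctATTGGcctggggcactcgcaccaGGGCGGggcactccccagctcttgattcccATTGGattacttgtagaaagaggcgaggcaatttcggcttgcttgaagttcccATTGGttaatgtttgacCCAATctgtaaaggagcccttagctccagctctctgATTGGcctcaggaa
Hmgcs1 (chr13:119690101-119690350, plus strand): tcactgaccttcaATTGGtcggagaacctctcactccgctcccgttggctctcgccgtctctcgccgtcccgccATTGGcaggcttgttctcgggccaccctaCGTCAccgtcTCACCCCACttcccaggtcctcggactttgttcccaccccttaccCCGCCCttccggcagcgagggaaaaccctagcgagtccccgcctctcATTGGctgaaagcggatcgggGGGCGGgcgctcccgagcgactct
Cyp51 (chr5:4104698-4104947, minus strand): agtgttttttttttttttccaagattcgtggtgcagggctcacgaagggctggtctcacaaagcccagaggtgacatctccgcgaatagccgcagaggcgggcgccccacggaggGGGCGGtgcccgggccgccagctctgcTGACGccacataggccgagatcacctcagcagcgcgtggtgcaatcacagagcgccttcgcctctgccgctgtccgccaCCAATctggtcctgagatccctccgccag
Hsd17b7 (chr1:169969206-169969455, minus strand): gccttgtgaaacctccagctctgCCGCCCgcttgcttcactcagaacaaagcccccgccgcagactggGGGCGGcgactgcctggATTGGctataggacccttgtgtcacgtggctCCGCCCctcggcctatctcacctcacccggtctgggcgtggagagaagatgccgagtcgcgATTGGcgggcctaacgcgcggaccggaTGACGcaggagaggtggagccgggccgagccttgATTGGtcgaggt
Mylip (chr13:45389492-45389741, plus strand): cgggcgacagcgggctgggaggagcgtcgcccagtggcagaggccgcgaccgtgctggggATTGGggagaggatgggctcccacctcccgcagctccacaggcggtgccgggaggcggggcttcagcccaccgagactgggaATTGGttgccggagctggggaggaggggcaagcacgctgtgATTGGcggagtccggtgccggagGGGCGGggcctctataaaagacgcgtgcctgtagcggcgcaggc

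Motifs were searched on both strands of windows that run from 250 bases before to 50 bases after a start site, and TGACG also lies within TGACGTCA. Windows were found for 26 of the 33 listed genes. Scd1, Stard4, Fdps, Fdft1, Sqle, Scd2 and Abcg1 had no window and were not searched. The sterol element was in the window of 1 of the 26, Hmgcs1, as TCACCCCAC at -137 from the start site, against 1.24% of all 32851 windows. CCAAT was in a window of 20 of the 26 genes (37.4% of all windows) and GGGCGG in 21 (35.7%). TGACG was in 10 of the 26 (20.8% of all windows): Cyp51 at -108, Hsd17b7 at -46 and Hmgcs1 at -147, which rose with at least 1 analog, Sc5d at -54, Ebp at -48 and Nsdhl at 4, which fell, Insig1, Insig2 and Srebf2, which were not called, and Nr1h2, which had no row of its own. TGACGTCA was in none of the 26 (1.79%). Some genes have several windows, so the shares per gene and per window are not on the same footing. Counted per window, CCAAT was in 21, GGGCGG in 25 and TGACG in 10 of the 35 windows of these genes. Pmvk has 2 start sites in the table. The window before the upstream one is shown, with CCAAT at -136, and no measurement here says which start site was used. A match is a description of the letters and shows no binding, and a missing match says only that the letters are not in the window.

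With hPTH(1-34) and hPTH(1-31) some enzymes of cholesterol synthesis rose and others fell, while with PTH(1-36) 5 were called higher and 0 lower. With PTH(1-36) too, 6 of the 16 measured enzymes lay below vehicle. Compared directly, 0 of the 16 were called between PTH(1-36) and hPTH(1-34) or hPTH(1-31). Of the 29 genes, 10 were called with hPTH(1-34) against vehicle (5 higher and 5 lower), 10 with hPTH(1-31) (6 higher and 4 lower) and 8 with PTH(1-36) (7 higher and 1 lower). A gene is called when its limma p-value, adjusted over all genes, is under 0.05. Where the 3 arrays of a group are said to lie above or below all vehicle arrays, this describes the values only. No share over all genes stands beside such statements, so for an uncalled gene they are not evidence of a difference. The called shares of 34.5%, 34.5% and 27.6% stand beside 8.64%, 8.7% and 7.23% of all genes, of which 3.9%, 4.38% and 3.68% were called higher and 4.74%, 4.32% and 3.54% lower. All 29 genes had vehicle means above the median of all genes. Neither these shares nor those of the other lists below were matched for signal. With the same analogs the median difference of the 29 was -0.047, -0.02 and +0.02, beside -0.013, -0.017 and -0.02 over all genes. The 3 comparisons use the same vehicle arrays. The count with hPTH(1-34) fell to 5 when vehicle replicate 1 or hPTH(1-34) replicate 2 or 3 was left out, and to 6 without vehicle replicate 2. With only the 2 groups of a contrast in the fit (6 arrays), the calls of Pmvk, Hsd17b7 and Mylip with each of the 3 analogs and of Scd1 with hPTH(1-34) and hPTH(1-31) held, and the other calls against vehicle were lost.

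Pmvk, Cyp51, Hsd17b7, Stard4 and Scd1 were higher and Mylip was lower with each of the 3 analogs that start at residue 1. These 6 genes are 20.7% of the 29, where 5.28% of all genes were called in the same direction with all 3 (2.8% higher and 2.48% lower). The other called genes were Mvk and Hmgcs1, which rose, and Nsdhl, Ebp, Sc5d and Dhcr7, which fell, each with 1 or 2 of the analogs. In the moderated F test over the 6 contrasts with vehicle 12 of the 29 passed, as did 2717 of all 22180 genes (12.2%). These 12 include Fasn, called with no analog against vehicle (F test adjusted p = 0.0378), and not Ebp (0.0528). In the single contrasts 17 of the 29 genes were called against vehicle with no analog. With the 3 analogs that start at residue 1 the differences of these 17 lay between -0.34 and +0.29.

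**Figure D1:**
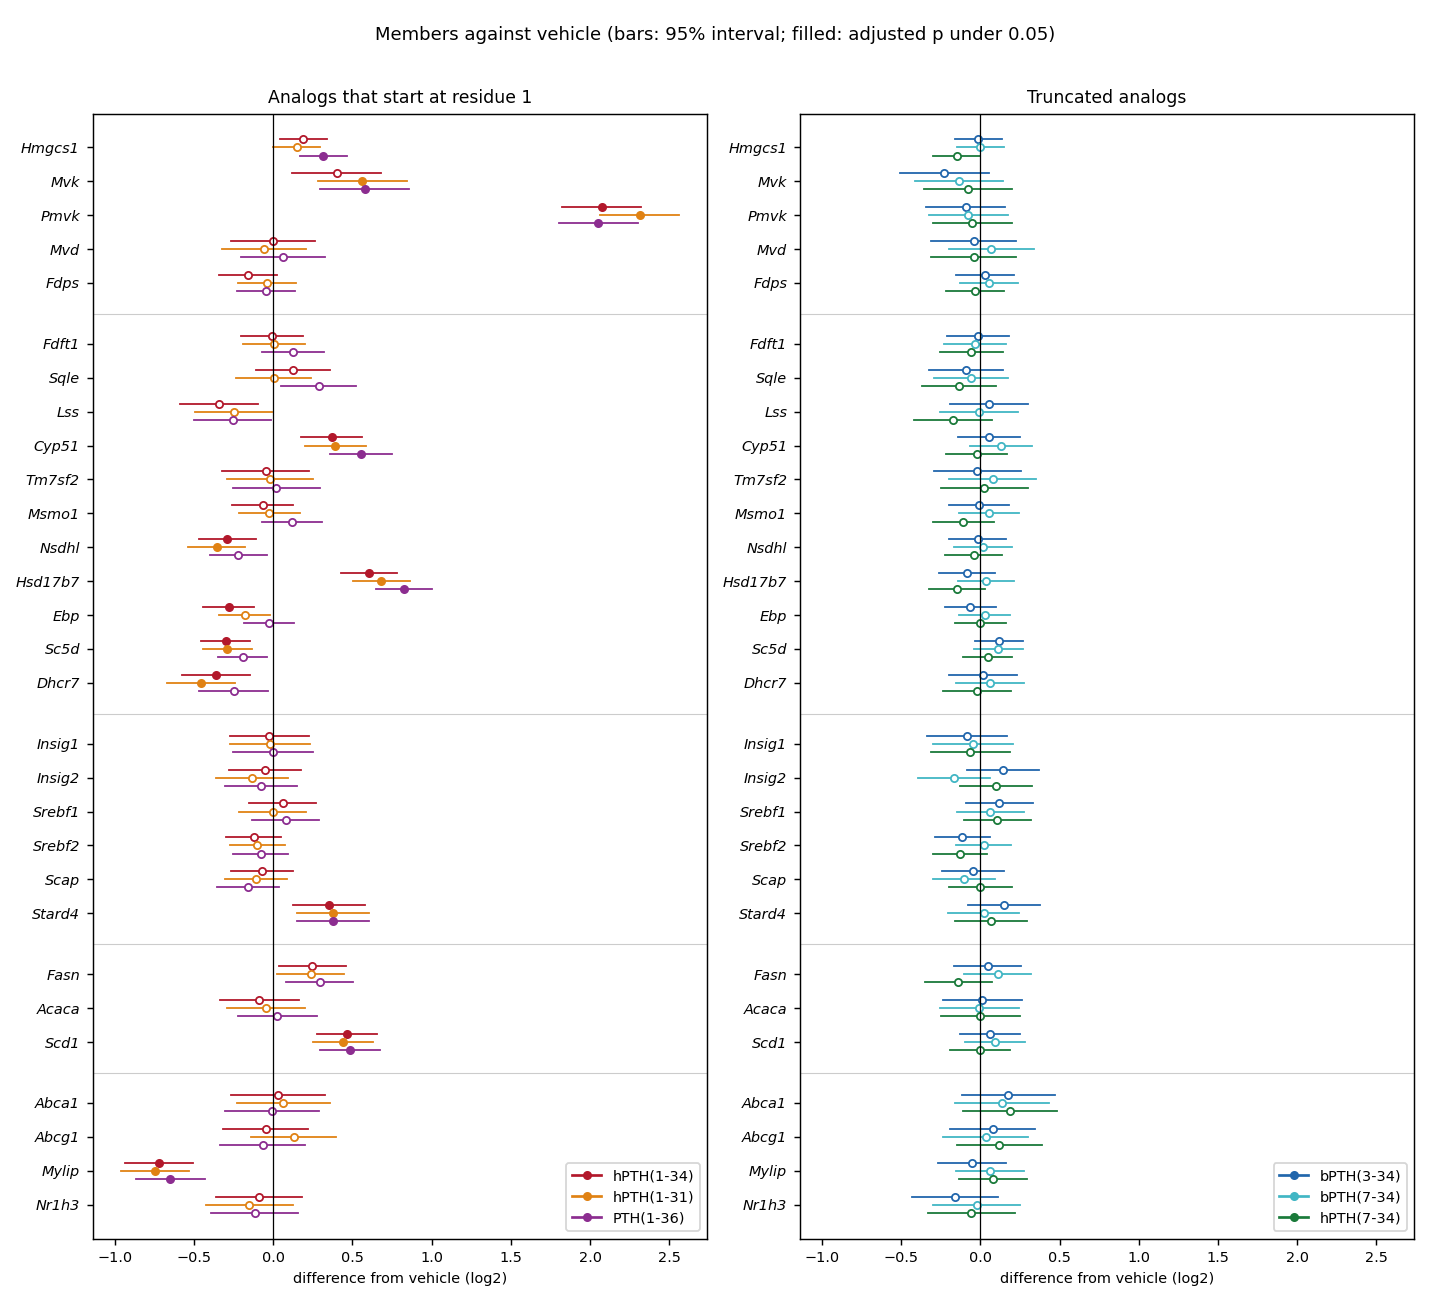
Difference from vehicle (log2, model estimate with its 95% interval) for the 29 genes, grouped by role, with the analogs that start at residue 1 on the left and the truncated analogs on the right. Filled points are called at an adjusted p under 0.05; Pmvk lies near +2 with the 3 analogs on the left, and no point on the right is filled.

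Within the mevalonate pathway the clearest change was in Pmvk, the kinase that adds the second phosphate to mevalonate. Its signal was 6.52, 6.76 and 6.33 in the 3 vehicle arrays. With the analogs that start at residue 1 it was 8.65, 8.80 and 8.38 with hPTH(1-34), 8.79, 8.93 and 8.83 with hPTH(1-31) and 8.59, 8.69 and 8.49 with PTH(1-36). Each of these 9 arrays lay more than 1 log2 unit above every vehicle array. The mean rose from 6.54 ± 0.22 to 8.61 ± 0.21 (SD, n = 3) with hPTH(1-34), a 4.21-fold increase (+2.07 ± 0.12, log2, SE; limma adjusted p = 9.33e-10), and 4.97-fold and 4.15-fold with hPTH(1-31) and PTH(1-36). Truncated analogs gave 6.54, 6.37 and 6.42 with bPTH(3-34), 6.29, 6.57 and 6.52 with bPTH(7-34) and 6.48, 6.56 and 6.42 with hPTH(7-34), values that overlapped those of vehicle.

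Mvk encodes the kinase of the preceding step. Vehicle arrays gave 6.62, 6.93 and 6.66. The analogs that start at residue 1 gave 7.08, 7.22 and 7.11 with hPTH(1-34), 7.47, 7.36 and 7.07 with hPTH(1-31) and 7.25, 7.57 and 7.12 with PTH(1-36), all above the highest vehicle array. Mvk rose by 0.56 ± 0.13 with hPTH(1-31) and by 0.58 ± 0.13 with PTH(1-36) (log2, SE; limma adjusted p = 0.00977 and 0.00958). With hPTH(1-34) the difference was +0.40 ± 0.13 and was not called (limma adjusted p = 0.0740). Its calls were lost without vehicle replicate 1 with either analog, without hPTH(1-31) replicate 1 and without PTH(1-36) replicate 2 (adjusted p up to 0.0589 and 0.0608). Truncated analogs gave 6.57, 6.42 and 6.54 with bPTH(3-34), 6.39, 6.80 and 6.62 with bPTH(7-34) and 6.69, 6.73 and 6.55 with hPTH(7-34), none of them above the highest vehicle array. The bPTH(3-34) arrays lay below all vehicle arrays, with a difference of -0.23 that was not called.

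Hmgcs1 encodes the cytosolic synthase that makes HMG-CoA, the precursor of mevalonate, and its window is the one that holds the sterol element printed above. Signals were 9.58, 9.51 and 9.48 with vehicle. They were 9.68, 9.70 and 9.76 with hPTH(1-34), 9.68, 9.70 and 9.64 with hPTH(1-31) and 9.84, 9.77 and 9.91 with PTH(1-36), again with no overlap with vehicle. Against vehicle the gene was called with PTH(1-36) (+0.32 ± 0.07, log2, SE; 1.25-fold; limma adjusted p = 0.00760) and not with hPTH(1-34) (+0.19, adjusted p = 0.120) or hPTH(1-31) (+0.15). With only the arrays of PTH(1-36) and vehicle in the fit that call was lost (limma adjusted p = 0.196). Truncated analogs gave 9.52, 9.48 and 9.53 with bPTH(3-34), 9.60, 9.44 and 9.53 with bPTH(7-34) and 9.44, 9.35 and 9.33 with hPTH(7-34). The hPTH(7-34) arrays were the low ones, all below the lowest vehicle array, with a difference of -0.15 that was not called. Mvd and Fdps, which make and join the isoprenoid units, differed from vehicle by between -0.16 and +0.06 with the analogs that start at residue 1 and were not called. Over the 5 enzymes of this pathway 1, 2 and 3 were called with hPTH(1-34), hPTH(1-31) and PTH(1-36), all of them higher. The shares of all genes called higher were 3.9%, 4.38% and 3.68%.

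Among the 11 enzymes from squalene to cholesterol, 2 rose with each of the 3 analogs and 4 fell with at least 1 of them. The share of all genes called higher with all 3 was 2.8%. Hsd17b7, a ketosteroid reductase that acts while methyl groups are removed from the sterol ring, had vehicle signals of 7.61, 7.59 and 7.60. The analogs that start at residue 1 gave 8.17, 8.17 and 8.27 with hPTH(1-34), 8.35, 8.25 and 8.25 with hPTH(1-31) and 8.41, 8.28 and 8.59 with PTH(1-36). All 9 arrays were above the vehicle arrays, which lay within 0.02 of each other. The increase was 1.52-fold with hPTH(1-34), 1.61-fold with hPTH(1-31) and 1.77-fold with PTH(1-36) (+0.60, +0.68 and +0.83, each ± 0.08, log2, SE; limma adjusted p = 7.30e-05, 1.63e-05 and 2.00e-06). With the truncated analogs it was 7.47, 7.51 and 7.57 with bPTH(3-34), 7.74, 7.52 and 7.65 with bPTH(7-34) and 7.39, 7.46 and 7.50 with hPTH(7-34). All arrays of bPTH(3-34) and hPTH(7-34) lay below the lowest vehicle array, with differences of -0.08 and -0.15 that were not called, and bPTH(7-34) overlapped vehicle.

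Cyp51, the demethylase of lanosterol, gave 7.94, 8.13 and 8.05 with vehicle. It gave 8.39, 8.36 and 8.48 with hPTH(1-34), 8.39, 8.42 and 8.49 with hPTH(1-31) and 8.52, 8.48 and 8.78 with PTH(1-36). No array of these 3 groups fell within the vehicle range, and the highest was PTH(1-36) replicate 3. Cyp51 rose by 0.37, 0.39 and 0.55 (each ± 0.09, log2, SE; limma adjusted p = 0.0146, 0.00946 and 5.61e-04). Leaving out vehicle replicate 1 or replicate 3 of hPTH(1-34) ended the hPTH(1-34) call (0.0770 at most), and leaving out vehicle replicate 1 that with hPTH(1-31) (0.0548). Truncated analogs gave 8.20, 7.94 and 8.14 with bPTH(3-34), 8.21, 8.17 and 8.13 with bPTH(7-34) and 8.03, 8.08 and 7.94 with hPTH(7-34), overlapping vehicle with bPTH(3-34), bPTH(7-34) and hPTH(7-34).

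Dhcr7, the reductase that forms cholesterol in the last step of a branch of the pathway, went the other way. Vehicle arrays gave 7.74, 7.84 and 7.62. The analogs that start at residue 1 gave 7.49, 7.28 and 7.34 with hPTH(1-34), 7.48, 7.28 and 7.08 with hPTH(1-31) and 7.62, 7.45 and 7.38 with PTH(1-36). PTH(1-36) replicate 1 equalled the lowest vehicle array, and the other 8 arrays were below it. Dhcr7 fell by 0.36 ± 0.10 with hPTH(1-34) and by 0.45 ± 0.10 with hPTH(1-31) (log2, SE; limma adjusted p = 0.0318 and 0.00710), and the difference with PTH(1-36) was -0.25 (adjusted p = 0.175). The hPTH(1-34) call did not hold when vehicle replicate 1 or 2, or replicate 2 or 3 of hPTH(1-34), was left out, with adjusted p reaching 0.136, and the hPTH(1-31) call without hPTH(1-31) replicate 3 (0.0510). Truncated analogs gave 7.80, 7.78 and 7.67 with bPTH(3-34), 7.84, 7.77 and 7.77 with bPTH(7-34) and 7.76, 7.77 and 7.61 with hPTH(7-34), close to vehicle.

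Sc5d, the sterol desaturase that acts just before Dhcr7, had vehicle signals of 8.41, 8.51 and 8.44. They were 8.14, 8.13 and 8.19 with hPTH(1-34), 8.18, 8.14 and 8.17 with hPTH(1-31) and 8.27, 8.19 and 8.32 with PTH(1-36). All 9 lay below the lowest vehicle array. Sc5d fell by 0.30 ± 0.07 with hPTH(1-34) and by 0.29 ± 0.07 with hPTH(1-31) (log2, SE; limma adjusted p = 0.0123 and 0.0155), and differed by -0.19 with PTH(1-36) (adjusted p = 0.135). Without vehicle replicate 2 or replicate 2 of the analog both calls were lost (adjusted p up to 0.0594 and 0.0711). With truncated analogs the signals were 8.57, 8.67 and 8.47 with bPTH(3-34), 8.61, 8.53 and 8.56 with bPTH(7-34) and 8.56, 8.52 and 8.42 with hPTH(7-34). The bPTH(7-34) arrays lay above all vehicle arrays, with a difference of +0.11 that was not called, and the others overlapped vehicle.

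Nsdhl, the decarboxylating dehydrogenase that works in the same methyl-removing steps as Hsd17b7, gave 9.12, 9.18 and 8.99 with vehicle. The analogs that start at residue 1 gave 8.78, 8.77 and 8.87 with hPTH(1-34), 8.83, 8.82 and 8.57 with hPTH(1-31) and 8.81, 8.96 and 8.86 with PTH(1-36), all below the lowest vehicle array. Nsdhl fell by 0.29 ± 0.09 with hPTH(1-34) and by 0.36 ± 0.09 with hPTH(1-31) (log2, SE; limma adjusted p = 0.0428 and 0.0118), with -0.22 (adjusted p = 0.153) for PTH(1-36). Its hPTH(1-34) call was lost without any of the 6 arrays other than vehicle replicate 3 (adjusted p up to 0.164), and its hPTH(1-31) call without replicate 2 of vehicle or 3 of hPTH(1-31) (0.0757). The partners Hsd17b7 and Nsdhl thus had called differences of opposite sign with hPTH(1-34) and hPTH(1-31). Truncated analogs gave 9.00, 9.09 and 9.15 with bPTH(3-34), 9.15, 9.06 and 9.13 with bPTH(7-34) and 9.04, 9.13 and 8.99 with hPTH(7-34), overlapping vehicle.

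Ebp, the isomerase that moves a double bond in the sterol ring, was called against vehicle only with hPTH(1-34), from 7.78, 7.83 and 7.81 with vehicle to 7.56, 7.55 and 7.47 (-0.28 ± 0.08, log2, SE; limma adjusted p = 0.0260). The hPTH(1-34) arrays lay below all vehicle arrays, and the call was lost without any of the 6 arrays (adjusted p up to 0.101). Its differences with hPTH(1-31) and PTH(1-36) were -0.18 and -0.03. Lss, the cyclase that closes the squalene epoxide to lanosterol, was lower in all arrays of the 3 analogs than in any vehicle array (-0.34, -0.25 and -0.26) and was not called (limma adjusted p = 0.0826, 0.245 and 0.235). Fdft1 and Sqle, which make squalene and its epoxide, and Tm7sf2 and Msmo1, a sterol reductase and a methyl oxidase, were called with no analog. Over the 11 enzymes 2 were called higher and 4 lower with hPTH(1-34), 2 and 3 with hPTH(1-31), and 2 and 0 with PTH(1-36). With the same analogs 3.9%, 4.38% and 3.68% of all genes were called higher and 4.74%, 4.32% and 3.54% lower.

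**Figure D2:**
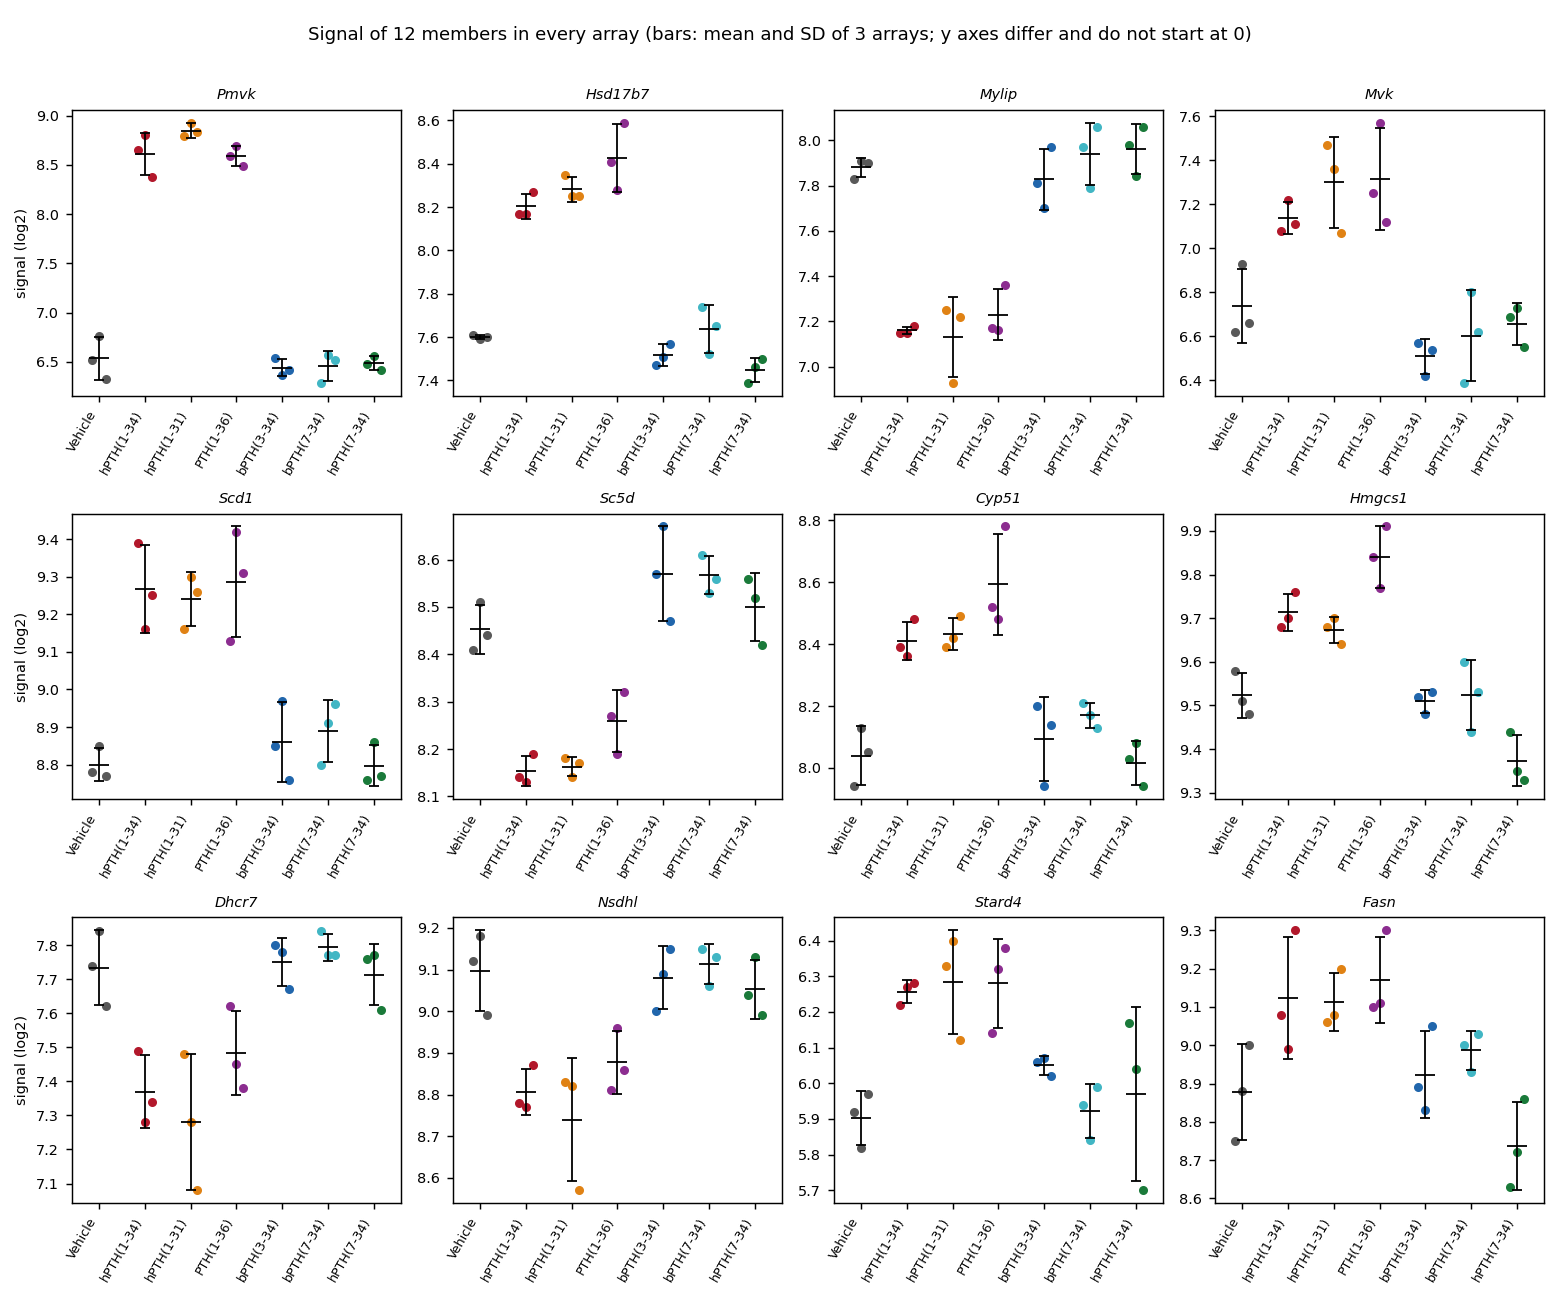
Signal (log2) in every array for the 12 genes with the smallest p in the F test over the contrasts with vehicle; points are arrays, bars the mean and SD of 3 arrays, and the y axes differ and do not start at 0. Pmvk is higher than vehicle in all 9 arrays of the analogs that start at residue 1, Mylip is lower in all 9, and the truncated analogs stay near vehicle for both.

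The 5 listed regulators Insig1, Insig2, Srebf1, Srebf2 and Scap, each read on 1 transcript cluster, were not called against vehicle with any analog. A further, dimmer cluster of Scap, outside the comparisons, was lower with hPTH(1-34) by 0.45 (log2, limma adjusted p = 0.0417 over all clusters). With the truncated bPTH(3-34) this cluster differed from vehicle by -0.52, which was not called (limma adjusted p = 0.428). The 5 genes differed from vehicle by between -0.16 and +0.08 with the analogs that start at residue 1. For Insig1, itself a classical SREBP target, the differences were -0.02, -0.02 and 0 with hPTH(1-34), hPTH(1-31) and PTH(1-36), with 95% intervals of -0.27 to +0.23, -0.27 to +0.23 and -0.25 to +0.25. The arrays measure transcripts and say nothing of whether SREBP protein was released.

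Stard4, a small carrier of cholesterol between membranes, was the called gene of sterol transport. Its signals were 5.92, 5.82 and 5.97 with vehicle and 6.22, 6.27 and 6.28 with hPTH(1-34), 6.33, 6.40 and 6.12 with hPTH(1-31) and 6.14, 6.32 and 6.38 with PTH(1-36). Those 9 arrays lay above the highest vehicle array. Stard4 rose by 0.35, 0.38 and 0.38 (each ± 0.11, log2, SE; limma adjusted p = 0.0494, 0.0333 and 0.0399). The 3 calls lie near the threshold and depended on single arrays. With hPTH(1-34) the call was lost without any of the 6 arrays (adjusted p up to 0.169), with hPTH(1-31) without vehicle or hPTH(1-31) replicate 1 or 2 (0.144), and with PTH(1-36) without any array other than PTH(1-36) replicate 1 (0.150). Truncated analogs gave 6.06, 6.07 and 6.02 with bPTH(3-34), 5.94, 5.84 and 5.99 with bPTH(7-34) and 6.17, 6.04 and 5.70 with hPTH(7-34), with bPTH(3-34) above the vehicle arrays and hPTH(7-34) spread around them.

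In fatty acid synthesis Scd1, the desaturase that makes monounsaturated fatty acids and a target of SREBP1 and the liver X receptors, was higher. Vehicle arrays gave 8.78, 8.85 and 8.77. The analogs that start at residue 1 gave 9.39, 9.16 and 9.25 with hPTH(1-34), 9.16, 9.30 and 9.26 with hPTH(1-31) and 9.13, 9.42 and 9.31 with PTH(1-36), all above vehicle. The increases were 1.38-fold, 1.36-fold and 1.40-fold (+0.47, +0.44 and +0.49, each ± 0.09, log2, SE; limma adjusted p = 0.00198, 0.00327 and 0.00154). With truncated analogs Scd1 was at 8.85, 8.97 and 8.76 with bPTH(3-34), 8.80, 8.91 and 8.96 with bPTH(7-34) and 8.76, 8.86 and 8.77 with hPTH(7-34), overlapping vehicle.

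Fasn, the fatty acid synthase, gave 8.75, 8.88 and 9.00 with vehicle. It gave 9.08, 8.99 and 9.30 with hPTH(1-34), 9.06, 9.08 and 9.20 with hPTH(1-31) and 9.10, 9.11 and 9.30 with PTH(1-36). The hPTH(1-34) group overlapped vehicle by replicate 2, and the other analogs lay above it. The differences of +0.25, +0.24 and +0.29 were not called (limma adjusted p = 0.165, 0.188 and 0.0921). Truncated analogs gave 8.89, 8.83 and 9.05 with bPTH(3-34), 9.00, 8.93 and 9.03 with bPTH(7-34) and 8.63, 8.72 and 8.86 with hPTH(7-34), with hPTH(7-34) the lowest. Acaca, the carboxylase of the preceding step, differed by between -0.09 and +0.03 and was not called.

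Mylip was the called member of the liver X receptor group and the called gene with the lowest differences. Signals were 7.83, 7.91 and 7.90 with vehicle. They were 7.15, 7.15 and 7.18 with hPTH(1-34), 7.25, 6.93 and 7.22 with hPTH(1-31) and 7.17, 7.16 and 7.36 with PTH(1-36). The highest of these 9 arrays was still well below the lowest vehicle array. Mylip was 1.65-fold, 1.68-fold and 1.57-fold lower than with vehicle (-0.72, -0.75 and -0.65, each ± 0.10, log2, SE; limma adjusted p = 9.89e-05, 6.24e-05 and 3.47e-04). Truncated analogs gave 7.81, 7.70 and 7.97 with bPTH(3-34), 7.97, 7.79 and 8.06 with bPTH(7-34) and 7.98, 7.84 and 8.06 with hPTH(7-34), on both sides of vehicle. The receptor Nr1h3 and the exporters Abca1 and Abcg1, the latter 2 classical targets of the same receptors as Mylip, differed by between -0.15 and +0.13 and were not called.

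Between the analogs that start at residue 1, all at 100 nM and 4 h, no member was called in any of the 3 pairs: hPTH(1-31) against hPTH(1-34), PTH(1-36) against hPTH(1-34) and PTH(1-36) against hPTH(1-31). The share called over all genes was 0%, 0.00451% and 0.00451%. At an unadjusted limma p under 0.05 the counts were 0, 2 and 3 of 29. For Pmvk hPTH(1-31), which ends 3 residues earlier, minus hPTH(1-34) was +0.24 with a 95% interval of -0.01 to +0.49, and PTH(1-36) minus hPTH(1-34) was -0.02 (-0.27 to +0.23). The lowest adjusted p of the pairs with hPTH(1-34) was that of Ebp, at +0.25 in PTH(1-36) (0.09 to 0.41; adjusted p = 0.625). Hsd17b7 was at +0.22 in the same pair (0.05 to 0.40; adjusted p = 0.736). These intervals leave room for differences of up to 0.52 in either direction among the 29 genes.

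The 16 measured synthesis enzymes lay mostly above 0 in PTH(1-36) minus hPTH(1-34), 15 of 16 (93.8%) with a median of +0.122, where 49.9% of all genes lay above 0 with a median of 0. In PTH(1-36) minus hPTH(1-31) 13 of 16 did (81.2%, median +0.13; all genes 48.9%). None of these 16 was called in either pair, and both pairs use the same PTH(1-36) arrays. Per array, the median over the 16 enzymes of the signal minus the vehicle mean was 0.13, 0.0083 and 0.072 with PTH(1-36) and 0.027, -0.098 and -0.022 with hPTH(1-34). PTH(1-36) replicate 2 lay below hPTH(1-34) replicate 1, so the groups overlapped. The vehicle arrays themselves lay at -0.0067, 0.082 and -0.06.

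**Figure D3:**
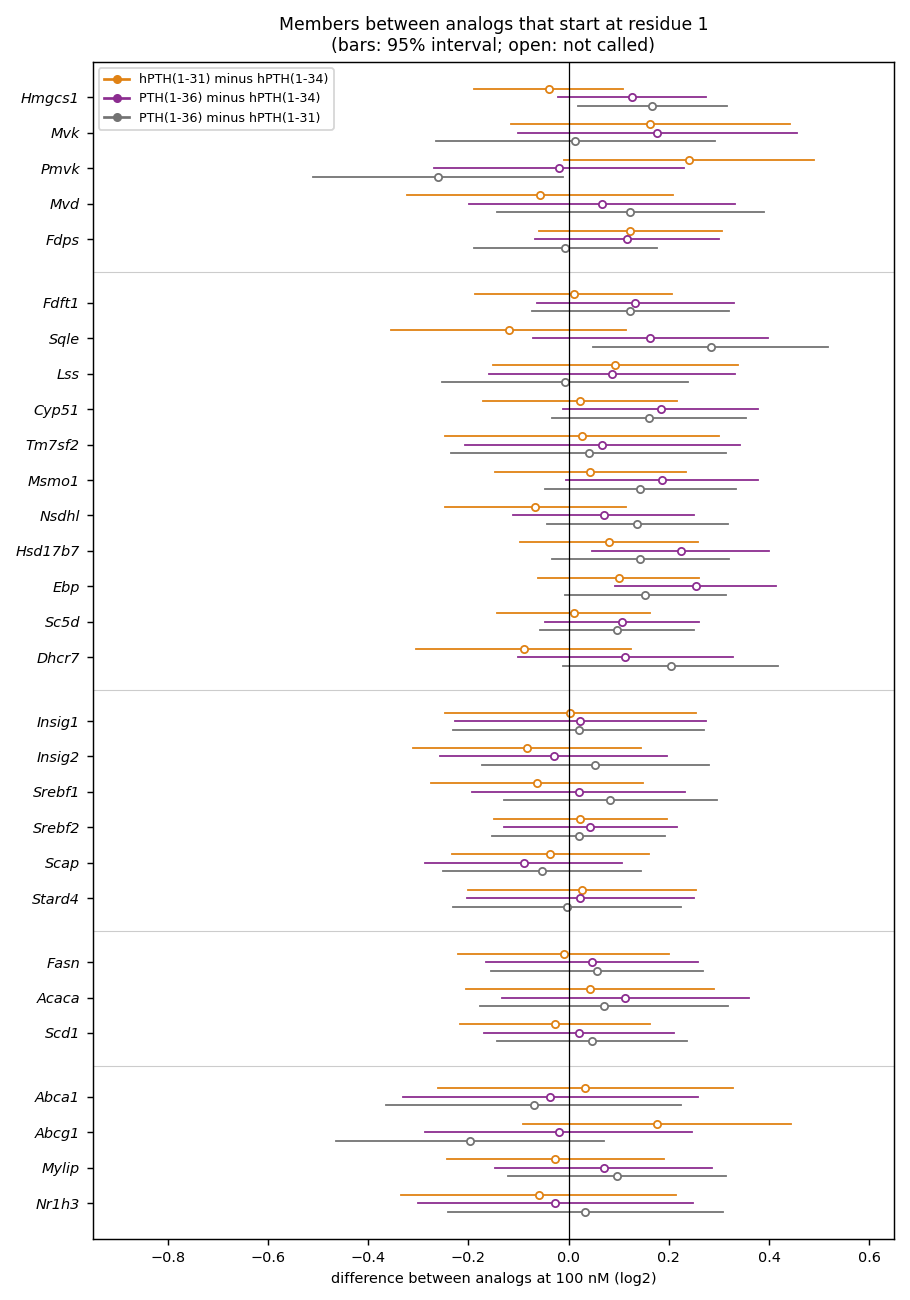
Differences between analogs that start at residue 1, each at 100 nM (log2, model estimate with its 95% interval), for the 29 genes by role. Open points are not called, which is all of them; in PTH(1-36) minus hPTH(1-34) 15 of the 16 enzymes in the upper 2 blocks lie to the right of 0.

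With the truncated analogs no member was called against vehicle. The limma counts were 0 of 29 for bPTH(3-34), bPTH(7-34) and hPTH(7-34), with 0, 0 and 1 at an unadjusted p under 0.05, beside called shares of 0%, 0% and 0.0721% over all genes. Differences lay between -0.23 and +0.18 with bPTH(3-34), -0.17 and +0.14 with bPTH(7-34), and -0.17 and +0.19 with hPTH(7-34). Their 95% intervals lay between -0.505 and +0.481. Of the 16 synthesis enzymes 5 lay above 0 with bPTH(3-34), 10 with bPTH(7-34) and 2 with hPTH(7-34) (medians -0.017, +0.032 and -0.047), where 49.8%, 47.2% and 49.9% of all genes did. The median over these enzymes in the 3 hPTH(7-34) arrays was -0.018, 0.0083 and -0.12, of which only replicate 3 lay outside the vehicle range. The dose of bPTH(7-34) was 10 times that of the others, so its values stand beside them without a comparison.

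Against hPTH(1-34) at the same dose, 9 members were called with bPTH(3-34) (4 higher and 5 lower, 31%, beside 9.32% of all genes, 5.38% higher and 3.94% lower) and 11 with hPTH(7-34) (4 higher and 7 lower, 37.9%, beside 10.9%, 6.66% higher and 4.2% lower). The latter count fell to 7 without hPTH(1-34) replicate 3. Both pairs use the same hPTH(1-34) arrays. Pmvk was lower, at -2.17 and -2.12 (log2), and so was Hsd17b7, at -0.69 and -0.75, while Mylip (+0.67 and +0.80) and Sc5d (+0.42 and +0.35) were higher. Cyp51 (-0.32 and -0.39) and Scd1 (-0.41 and -0.47) were lower too, and Dhcr7 (+0.38 and +0.34) was higher. With hPTH(7-34) only, Hmgcs1 was lower by 0.34 (limma adjusted p = 0.00339) and Ebp higher by 0.28 (limma adjusted p = 0.0220). Leaving out single arrays ended the Ebp call, both Dhcr7 calls and the Cyp51 call with bPTH(3-34). Mvk, not called with hPTH(1-34) against vehicle, was lower, at -0.63 and -0.48 (limma adjusted p = 0.00412 and 0.0239), the latter not called when replicate 2 or 3 of hPTH(1-34) or replicate 1 or 3 of hPTH(7-34) was left out (at most 0.0907). Lss was called only here, higher with bPTH(3-34) than with hPTH(1-34) by 0.40 ± 0.12 (adjusted p = 0.0386; lost without any array other than hPTH(1-34) replicate 1, up to 0.175). Fasn likewise was called only in hPTH(7-34) against hPTH(1-34), at -0.39 ± 0.10 (adjusted p = 0.0168; lost without hPTH(1-34) replicate 3 or hPTH(7-34) replicate 1 or 2, up to 0.0966). Of hPTH(7-34) against bPTH(3-34), which differ in species and in 4 residues at the start, 0 of 29 were called (0 at an unadjusted limma p under 0.05; 0.0496% of all genes called), with differences between -0.23 and +0.15.

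The genes that flank the called members on the chromosome were examined for their own values. The 12 members called with an analog that starts at residue 1 have 24 flanking protein-coding genes in RefSeq, of which 22 were measured, and 2 of the 22 (9.09%) were called with each of the 3 analogs, close to the shares of all genes. Both are named here after their values were seen. Mmab, a cobalamin adenosyltransferase of vitamin B12 metabolism, starts 242 bases from Mvk on the opposite strand, so that the 2 genes share the window of Mvk printed above, with 5 CCAAT boxes and 2 GC boxes within it. Mmab gave 6.95, 7.03 and 6.62 with vehicle. It gave 6.12, 6.00 and 6.21 with hPTH(1-34), 5.89, 6.18 and 5.99 with hPTH(1-31) and 6.08, 6.19 and 6.03 with PTH(1-36), all below the lowest vehicle array. Mmab fell by 0.76, 0.85 and 0.77 (each ± 0.11, log2, SE; limma adjusted p = 1.31e-04, 3.56e-05 and 1.34e-04), against +0.40, +0.56 and +0.58 for Mvk. With truncated analogs it was at 6.82, 6.92 and 6.83 with bPTH(3-34), 6.88, 6.82 and 6.58 with bPTH(7-34) and 6.68, 6.80 and 6.71 with hPTH(7-34), and was not called.

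**Figure D4:**
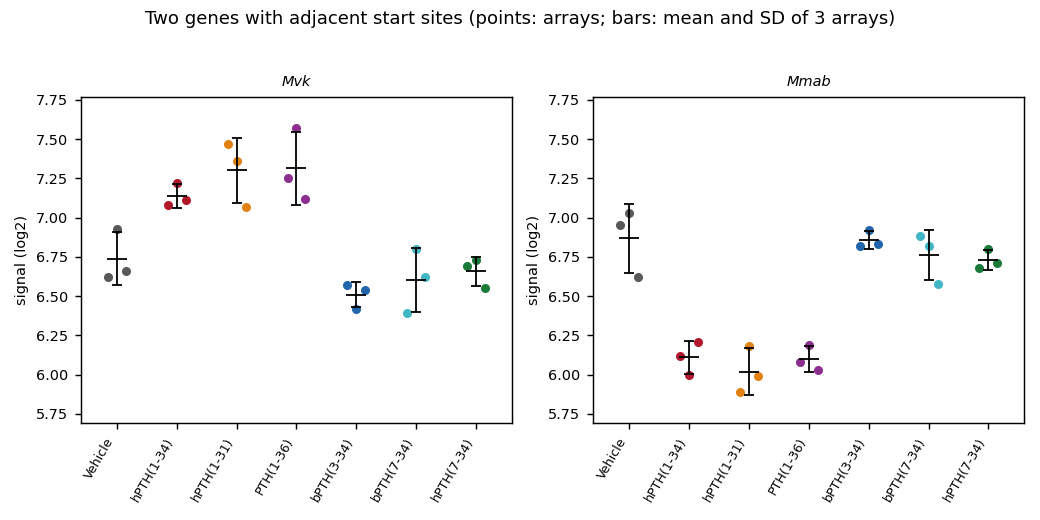
Signal (log2) of Mvk and of Mmab, whose start sites lie 242 bases apart on opposite strands, in every array; points are arrays and bars the mean and SD of 3 arrays. With the analogs that start at residue 1 Mvk is above vehicle in all 9 arrays and Mmab below it in all 9.

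Camk4, a calmodulin-dependent kinase beside Stard4, was higher by 1.30, 1.33 and 1.20 (each ± 0.12, log2, SE; limma adjusted p = 6.96e-07, 5.26e-07 and 2.27e-06), a larger difference than that of Stard4. The measured neighbours of Pmvk, Pbxip1 and Kcnn3, were not called, at -0.04, +0.04 and -0.13 and at -0.13, -0.19 and +0.15.

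A second list of 51 genes of isoprenoid, sterol, oxysterol and fatty acid metabolism, none of them a member, was followed beside the 29, and 47 were measured. Of these 3 rose and 5 fell with hPTH(1-34), 4 and 4 with hPTH(1-31), and 4 and 3 with PTH(1-36), that is 17%, 17% and 14.9% beside 8.64%, 8.7% and 7.23% of all genes (3.9%, 4.38% and 3.68% higher, 4.74%, 4.32% and 3.54% lower), and 0 were called with each truncated analog. Ch25h, the hydroxylase that turns cholesterol into an oxysterol ligand of the liver X receptors, gave 6.68, 6.62 and 6.64 with vehicle and 7.63, 7.54 and 7.66 with hPTH(1-34), 7.73, 7.54 and 7.69 with hPTH(1-31) and 7.34, 7.90 and 7.69 with PTH(1-36). It rose 1.95-fold, 2.01-fold and 2.00-fold (+0.96, +1.01 and +1.00, each ± 0.14, log2, SE; limma adjusted p = 1.30e-04, 7.59e-05 and 1.04e-04). With hPTH(7-34) its arrays were at 7.05, 6.88 and 7.48, all above vehicle, and the difference of +0.49 was not called (adjusted p = 0.359).

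Enzymes that lengthen and desaturate fatty acids went in different directions. Elovl5, the elongase of polyunsaturated fatty acids, rose by 0.59, 0.58 and 0.61 (each ± 0.08), from 9.17, 9.16 and 9.19 with vehicle to 9.82, 9.77 and 9.69 with hPTH(1-34), 9.83, 9.71 and 9.73 with hPTH(1-31) and 9.87, 9.69 and 9.80 with PTH(1-36). Elovl6, the elongase of saturated fatty acids, rose by 0.39 with hPTH(1-31) and 0.31 with PTH(1-36), the latter a call lost without any array other than PTH(1-36) replicate 3 (adjusted p up to 0.180) and the former without vehicle replicate 3 (0.0531). Fads1 and Fads2, the front-end desaturases, fell with hPTH(1-34) (by 0.44 and 0.37) and hPTH(1-31) (by 0.35 and 0.36). The hPTH(1-31) call of Fads1 was lost without vehicle replicate 2 (0.0520), and both calls of Fads2 without vehicle replicate 1 or 2. Leaving out replicate 2 of hPTH(1-34), or replicate 2 or 3 of hPTH(1-31), ended the matching Fads2 call too (0.0890 and 0.101 at most). With PTH(1-36) Fads1 fell by 0.28, a call lost without any of the 6 arrays (adjusted p up to 0.182), and Fads2 was at -0.26, not called. With only the 2 groups in the fit both Elovl6 calls, both Fads2 calls and the Fads1 calls with hPTH(1-31) and PTH(1-36) were lost. Scd1, a desaturase of another position, was among the genes that rose.

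Rnf145, a ubiquitin ligase of the endoplasmic reticulum that takes part in sterol control, fell by 0.51, 0.55 and 0.48 (each ± 0.09, log2, SE), with 7.25, 7.32 and 7.30 in the vehicle arrays and 6.69, 6.83 and 6.83 with hPTH(1-34), 6.77, 6.80 and 6.65 with hPTH(1-31) and 6.81, 6.84 and 6.79 with PTH(1-36). While 2.48% of all genes were called lower with all 3 analogs, Rnf145 is 1 of 8 measured genes of SREBP processing in the second list. Of these 8, 2 (25%) fell with each of the 3 analogs. The other is Erlin2, a protein of the endoplasmic reticulum that takes part in holding SREBPs there, named after its values were seen. Erlin2 gave 7.31, 7.54 and 7.22 with vehicle and 6.97, 6.95 and 6.89 with hPTH(1-34), 6.85, 6.97 and 6.95 with hPTH(1-31) and 7.05, 7.00 and 6.89 with PTH(1-36), all below the lowest vehicle array. It fell by 0.42, 0.43 and 0.38 (each ± 0.10, log2, SE; limma adjusted p = 0.0149, 0.0120 and 0.0340). Without vehicle replicate 2 each of these calls was lost. The hPTH(1-34) call was also lost without hPTH(1-34) replicate 3, the hPTH(1-31) call without hPTH(1-31) replicate 1, and the PTH(1-36) call without vehicle replicate 1 or PTH(1-36) replicate 2 or 3 (adjusted p up to 0.0934, 0.0788 and 0.176). With only the 2 groups in the fit its 3 calls were lost as well. Lrp8, a receptor of the lipoprotein receptor family, rose by 0.64 and 0.49 (each ± 0.12) with hPTH(1-34) and hPTH(1-31) and was at +0.37 with PTH(1-36) (limma adjusted p = 0.0692). The hPTH(1-31) call was lost without vehicle replicate 3 (0.0635) and with only the 2 groups in the fit (0.0681). Cyp7b1, a hydroxylase that clears oxysterols, fell with hPTH(1-34) (by 0.48 ± 0.10) and was at -0.05 and -0.23 with hPTH(1-31) and PTH(1-36). Its hPTH(1-34) call was lost with only the 2 groups in the fit (limma adjusted p = 0.0564). The difference of Cyp7b1 between hPTH(1-34) and hPTH(1-31) did not pass over all genes, since no gene was called in that pair.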

How the data were processed

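Each array, of the Affymetrix type Mouse Gene 2.0 ST, received material from 100 ng of total RNA. In the deposited table there are 41345 transcript clusters, and per the submitters' processing notes the authors used RMA in Affymetrix Expression Console (versions, settings and base of the logarithm are not given in the sources used here). The deposited values, 0.25 to 13.6, were read as log2, so every difference and fold rests on that reading. The platform annotation gave 1 symbol to 23521 clusters, several to 1814 and none to 16010. Where a gene had several clusters (among the members, 1 gene), the one with the highest mean was kept. Arrays of a group correlated at r = 0.990 to 0.994. Precision is limited by the number of arrays.

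All 21 arrays entered 1 linear model of 7 groups (limma 3.58.1, R 4.3.3, lmFit and eBayes). Two-sided p-values were adjusted for each contrast over its 22180 genes (Benjamini-Hochberg), and values under 0.05 were called. The fit and the motif search were tested on simulated data.

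The members and lists were chosen with earlier results of these data known. All members called in any of the 12 contrasts are named, the 12 with the smallest F test p with every array's value. Up to 8 called genes of the second list are named by the same p. Other genes are marked as chosen after their values were seen. Replicates came from independent cell preparations, but no label joins equal numbers across treatments, so no block was used. Alternatives were the replicate block, other filters, scalings and variance models, the mean of a gene's clusters, each pair of groups alone and each array left out.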

Additional observations from a re-analysis of the deposited data

Results flagged for a closer look

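Idi1, the isomerase of the isoprenoid units, lies on a transcript cluster that carries several gene symbols and was left out of the comparisons. It is given because it showed a signal in data that the comparisons did not use. With vehicle the cluster was at 6.97, and with PTH(1-36) it was higher by 0.55 (log2, limma adjusted p = 0.00621 over all clusters). With hPTH(1-34) and hPTH(1-31) the differences were +0.36 and +0.36 (adjusted p = 0.0846 and 0.0836). With the truncated bPTH(3-34), bPTH(7-34) and hPTH(7-34) they were +0.18, +0.21 and +0.21 and were not called. Directly compared, PTH(1-36) minus hPTH(1-34) was +0.19 (limma adjusted p = 0.857). Which of the cluster's genes gave the signal was not tested.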

How the results depend on the processing

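Of the 48 member calls over the 12 contrasts, 21 held under every alternative and 0 changed direction. With only the 2 groups of a contrast in the fit, 26 of the 48 were lost, and the counts fell to 4 with hPTH(1-34), 4 with hPTH(1-31) and 3 with PTH(1-36) against vehicle, and to 5 with bPTH(3-34) and 6 with hPTH(7-34) against hPTH(1-34); that fit uses 6 arrays in place of 21. With all transcript clusters tested 11 calls were lost, and the hPTH(1-34) count fell to 6. Quantile normalization lost 3 calls, median-centred arrays 2, array weights 1 and the mean of clusters 1, while the filter at the median mean and the trended robust variance lost 0. Leaving out each array in turn gave 5 to 8 members with hPTH(1-34), 7 to 10 with hPTH(1-31) and 6 to 8 with PTH(1-36) against vehicle, 6 to 8 with bPTH(3-34) and 7 to 11 with hPTH(7-34) against hPTH(1-34), and 10 to 12 in the F test. The 7 counts of 0 stayed at 0 in each alternative.

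The replicate numbers were not taken to pair the arrays, since that needed a correlation over 0.1 in every pair: over 63 pairs with the same number the correlation of deviations from group means ran from -0.0809 to 0.161 (median 0.0341, against -0.0129 for pairs with other numbers), with 1 over 0.1. As a hint from the data and not from the design, 14 of 21 arrays correlated best with their own number. With the replicate block 1 of the 48 calls was lost (Stard4 with hPTH(1-34)), and the counts against vehicle were 11 with hPTH(1-34), 11 with hPTH(1-31) and 9 with PTH(1-36), with 10 and 11 for bPTH(3-34) and hPTH(7-34) against hPTH(1-34) and 13 in the F test.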

Other observations

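Scap has a further transcript cluster with a lower signal (4.21 with vehicle), which was lower with hPTH(1-34) by 0.45 (log2, limma adjusted p = 0.0417 over all clusters) and differed by -0.21 and -0.29 with hPTH(1-31) and PTH(1-36) (adjusted p = 0.491 and 0.261). With bPTH(3-34), bPTH(7-34) and hPTH(7-34) this cluster differed by -0.52, -0.29 and -0.36 and was not called (limma adjusted p = 0.428, 0.910 and 0.486). In the direct comparison bPTH(3-34) minus hPTH(1-34) was -0.07 for this cluster (limma adjusted p = 0.851). The cluster with the higher mean, used for Scap, differed by -0.07 with hPTH(1-34). Scd2, a desaturase related to Scd1, lies on a cluster with several symbols (11.5 with vehicle), which differed by -0.14, -0.12 and -0.04 with hPTH(1-34), hPTH(1-31) and PTH(1-36) and was not called (adjusted p = 0.472, 0.582 and 0.883).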
